A study of Mus musculus with 8 samples.

Results

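The expression of 9 transcription factor genes that pattern the midbrain and hindbrain was examined in neural progenitor (NP) cells that lack *Sox3* and in control NP cells. The genes are *Gbx2*, *En1*, *En2*, *Pax2*, *Pax5*, *Pax8*, *Lmx1a*, *Lmx1b* and *Egr2*, and they were chosen by symbol from the gene annotation of the array. Of the 9 genes, 8 had a transcript cluster (the set of probes that the array summarises into a single value for a gene), 1 each, out of 23410 named transcript clusters. The expression of *Lmx1a* was not analysed here. *Sox3* null cells, whose only *Sox3* exon was exchanged for GFP, and Conditional cells, which carry a conditional *Sox3* allele and are labelled *Sox3* positive, both derive from the R1 mouse ES cell line. Each genotype gave 4 cultures at Day 4 in N2B27, a medium without serum that lets ES cells become neural, with 2 cultures in each of 2 independent differentiation series, called batch 2 and batch 1. The genotypes are different targeted lines, so the loss of *Sox3* cannot be told apart from whatever else distinguishes these lines.

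At the neural plate stage, a boundary between cells that express *Otx2* in front and *Gbx2* behind positions the isthmus, a signalling centre at the junction of midbrain and hindbrain that secretes FGF8 and WNT1. *Pax2*, *Lmx1b*, *En1*, *En2*, *Pax5* and *Pax8* come on around this boundary and maintain one another and the isthmic signals, and *Lmx1a* and *Lmx1b* also mark the floor of the midbrain, where dopaminergic neurons arise. Further back, *Egr2* (also called *Krox20*) marks the third and the fifth rhombomere, segments of the hindbrain, and it is also an immediate early gene that responds to growth factor signals.

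The arrays were separated by batch more widely than by genotype. Of all transcript clusters, 20.2% passed the test for batch and 1.55% passed the test for genotype, at an adjusted p of no more than 0.05. The test was limma's, a linear model fitted to every transcript cluster with terms for genotype and batch. *Sox3* itself was lower in every null array, at 8.37 to 8.67 log2 units in *Sox3* null cells and 9.73 to 9.92 in Conditional cells. All 8 neural progenitor markers listed (*Sox1*, *Sox2*, *Pax6*, *Nes*, *Hes5*, *Fabp7*, *Msi1* and *Notch1*) lay above the median signal of the named transcript clusters, and so did 7 of 10 pluripotency genes. The cultures are mixtures, so that fewer cells expressing a gene and less RNA per cell cannot be told apart.

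All 8 measured factors gave a signal above that of most olfactory receptor genes, which NP cells are not known to express and which stand here for dim transcript clusters. The 1035 olfactory receptor transcript clusters had a median of 4.79 log2 units, and each factor lay above at least 98.6% of them. *Sox3* in the null cells, which lack its exon, still read 8.37 to 8.67 log2 units. The mean signals of *Lmx1b* (8.23), *Pax5* (7.15), *En2* (7.08) and *Pax8* (6.87) lay below that range. Those of *En1* (8.52) and *Pax2* (8.57) lay within it. A place above the olfactory receptors therefore does not show by itself that a factor was expressed. *Egr2* and *Gbx2* were the brightest, at the 90.7th and 88.3th percentile of all named transcript clusters. *Pax2*, *En1* and *Lmx1b* lay at the 60.6th, 59.9th and 56.4th percentile. *Pax5*, *En2* and *Pax8* lay below the median, at the 44.1th, 43.3th and 40.5th percentile. Probes differ in their response, so these positions show how far a signal stood above the dim end of the arrays and give no order of abundance between the genes.

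No factor passed the test for genotype in limma, which 1.55% of all transcript clusters passed (1.15% higher and 0.393% lower in *Sox3* null cells, and 0.431% with a change of 1.4-fold besides). Of the 8, 6 had a log2 fold change of *Sox3* null over Conditional below 0 and 2 had one above 0. Their median was -0.16, against 0.00 over all named transcript clusters. At an unadjusted p under 0.05 there were 5 of the 8 (*Gbx2*, *Pax2*, *Lmx1b*, *Egr2* and *En2*), against 13.1% of all transcript clusters and 15.0% of those above the median signal. Of the 8 intervals, 6 lay wholly within a change of 1.4-fold either way, the fold threshold of the study, which is 0.485 on the log2 scale. Those of *Egr2* and *En2* crossed that limit.

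**Figure D1:**
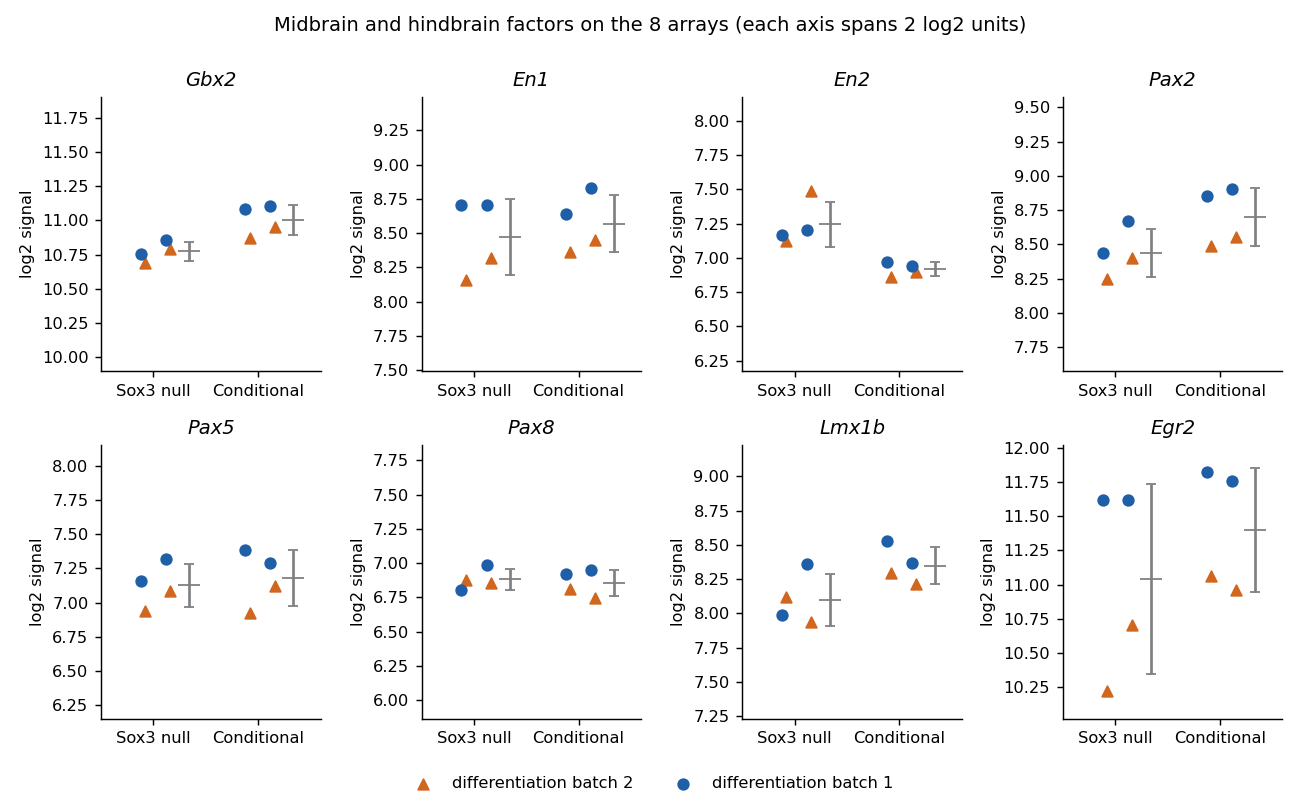
Log2 signal (vertical axes, each spanning 2 log2 units) of the 8 measured factors on each array, by genotype. Triangles are batch 2 and circles batch 1, and the mean with its SD over 4 arrays is in grey. *Egr2* runs from 10.22 to 11.82 and is split by batch, whereas *Gbx2* and *En2* are split by genotype.

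*Gbx2*, the homeobox factor of the anterior hindbrain, had 10.69 and 10.79 log2 units in the *Sox3* null cultures of batch 2 and 10.76 and 10.85 in those of batch 1. The Conditional cultures gave 10.87 and 10.95 in batch 2 and 11.08 and 11.11 in batch 1. No array lay between the genotypes, although the gap between the highest null array and the lowest Conditional array was smaller than the spread within a genotype. The means were 10.77 ± 0.067 in *Sox3* null cells and 11.00 ± 0.11 in Conditional cells (SD, n = 4 each). The log2 fold change was -0.23 (standard error 0.05, 95% interval -0.35 to -0.11), with an adjusted p of 0.0719 from limma, and it was -0.17 in batch 2 and -0.29 in batch 1. In order, the Conditional cultures of batch 1 were highest, those of batch 2 followed, and the null cultures of both batches were lowest with overlapping ranges. Complete separation of the 8 arrays with the null arrays lower was seen for 2.19% of all transcript clusters.

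*Gbx2* is also expressed in ES cells, and the pluripotency genes were read beside it. Their summed linear signal was 7879 to 8341 in *Sox3* null cells and 8266 to 9917 in Conditional cells. Of the 10 genes, 7 had a log2 fold change below 0 and 1 passed the test, *Nanog*, a factor of the pluripotent state (-0.37, adjusted p = 0.0464 from limma). The part of these cells in the *Gbx2* signal was not tested. The adjusted p of *Gbx2* from limma was 0.0409 among transcript clusters above the median signal alone and 0.0348 with an intensity trend in the variance. Other settings weakened it. It was 0.188 with unnamed transcript clusters tested too, 0.158 with batch as a random block and 0.41 without the batch term. A plain linear model gave 0.198.

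*En2*, the engrailed factor of the midbrain and cerebellar field, had the highest log2 fold change of the 8 factors. It had 7.13 and 7.49 log2 units in the null cultures of batch 2 and 7.16 and 7.20 in those of batch 1, against 6.86 and 6.90 in the Conditional cultures of batch 2 and 6.97 and 6.94 in those of batch 1. Every null array lay above every Conditional array, as for 2.41% of all transcript clusters, and null replicate 4 was well above the other 3. The means were 7.25 ± 0.16 in *Sox3* null cells and 6.92 ± 0.050 in Conditional cells (SD, n = 4 each). This gave a log2 fold change of 0.33 (standard error 0.08, 95% interval 0.16 to 0.50, limma's adjusted p = 0.0741). It was 0.43 in batch 2 and 0.23 in batch 1. Without null replicate 4 it was 0.24. The adjusted p from limma was 0.0494 when the arrays were centred again on their medians. Other settings weakened it, to 0.245 with unnamed transcript clusters tested too, 0.13 with batch as a random block and 0.284 without the batch term. A plain linear model gave 0.317.

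*En1*, the paralog of *En2*, did not follow it. *En1* had 8.16 and 8.32 log2 units in the null cultures of batch 2 and 8.71 in both of those of batch 1, against 8.36 and 8.45 in the Conditional cultures of batch 2 and 8.64 and 8.83 in those of batch 1. The genotypes overlapped in batch 1, where the difference was -0.03, and the null arrays lay below the Conditional arrays in batch 2, by -0.17. The log2 fold change over both batches was -0.10 (95% interval -0.24 to 0.04, adjusted p = 0.584 from limma). The difference between *En1* and *En2* in their genotype effects was not tested.

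The members of the *Pax2*, *Pax5* and *Pax8* subfamily, paired box factors that share a DNA-binding domain and follow each other in time at the isthmus, differed in how far the genotypes stood apart. *Pax2*, the earliest of them, had 8.24 and 8.40 log2 units in the null cultures of batch 2 and 8.43 and 8.67 in those of batch 1. In Conditional cells it had 8.49 and 8.56 in batch 2 and 8.85 and 8.90 in batch 1. Within each batch both null arrays lay below both Conditional arrays, while the null cultures of batch 1 overlapped the Conditional cultures of batch 2. Over both batches the log2 fold change was -0.26 (standard error 0.07, 95% interval -0.41 to -0.12, limma's adjusted p = 0.0949). It was -0.20 in batch 2 and -0.33 in batch 1, and limma's adjusted p was 0.0437 after the arrays were quantile normalized again. Other settings weakened the adjusted p of *Pax2*. Limma gave 0.255 with unnamed transcript clusters tested too, 0.329 with batch as a random block and 0.708 without the batch term. A plain linear model gave 0.300.

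*Pax5* and *Pax8* showed smaller differences between the genotypes. *Pax5* averaged 7.13 ± 0.16 log2 units in *Sox3* null cells and 7.18 ± 0.20 in Conditional cells, and *Pax8* averaged 6.88 ± 0.076 in *Sox3* null cells and 6.86 ± 0.097 in Conditional cells (SD, n = 4 each). The genotypes overlapped for both genes. The log2 fold change of *Pax5* was -0.06 (95% interval -0.20 to 0.09, adjusted p = 0.801 from limma). That of *Pax8* was 0.03 (95% interval -0.10 to 0.15, limma's adjusted p = 0.907), and it was 0.09 in batch 2 and -0.04 in batch 1. Over all 8 arrays *Pax8* varied least of the factors, by 0.24 log2 units between the lowest and the highest array.

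*Lmx1b*, a LIM homeobox factor needed for *Fgf8* expression at the isthmus, had 8.12 and 7.94 log2 units in the null cultures of batch 2 and 7.99 and 8.36 in those of batch 1. In Conditional cells it had 8.29 and 8.22 in batch 2 and 8.53 and 8.37 in batch 1. The null arrays lay below the Conditional arrays within each batch, but null replicate 2, at 8.362, lay just under Conditional replicate 2, at 8.365. The log2 fold change was -0.25 (standard error 0.08, 95% interval -0.43 to -0.07, adjusted p = 0.211 from limma), and it was -0.17 without null replicate 1 and -0.32 without null replicate 2. The order of the 4 sets of cultures was not resolved beyond the top, since Conditional batch 2, null batch 1 and null batch 2 overlapped in turn.

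*Egr2* had the lowest log2 fold change of the 8 factors. It read 10.22 and 10.70 log2 units in the null cultures of batch 2 and 11.62 in both of those of batch 1, against 11.06 and 10.96 in the Conditional cultures of batch 2 and 11.82 and 11.76 in those of batch 1. The null arrays were the lower ones in each batch, and the 4 sets of cultures did not overlap, with Conditional batch 1 highest and followed by null batch 1, Conditional batch 2 and null batch 2. The log2 fold change was -0.36 (standard error 0.10, 95% interval -0.59 to -0.13, adjusted p = 0.152 from limma). It was -0.55 in batch 2 and -0.17 in batch 1, and -0.23 without null replicate 3, the lowest array. The difference between the 2 batches in the genotype effect was -0.38, with a 95% interval of -0.79 to 0.04 (unadjusted p = 0.0686 and adjusted p = 0.9997 from limma's interaction term). No transcript cluster passed the interaction test in limma, where 715 had an unadjusted p under 0.05.

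Within both batches, the null arrays lay below the Conditional arrays for 4 of the 8 factors (*Gbx2*, *Pax2*, *Lmx1b* and *Egr2*) and above them for 1 (*En2*). The same held for 5.04% of all transcript clusters below and 7.01% above. These 5 are the genes with an unadjusted p under 0.05, from the same arrays, so the separation adds no independent evidence.

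**Figure D2:**
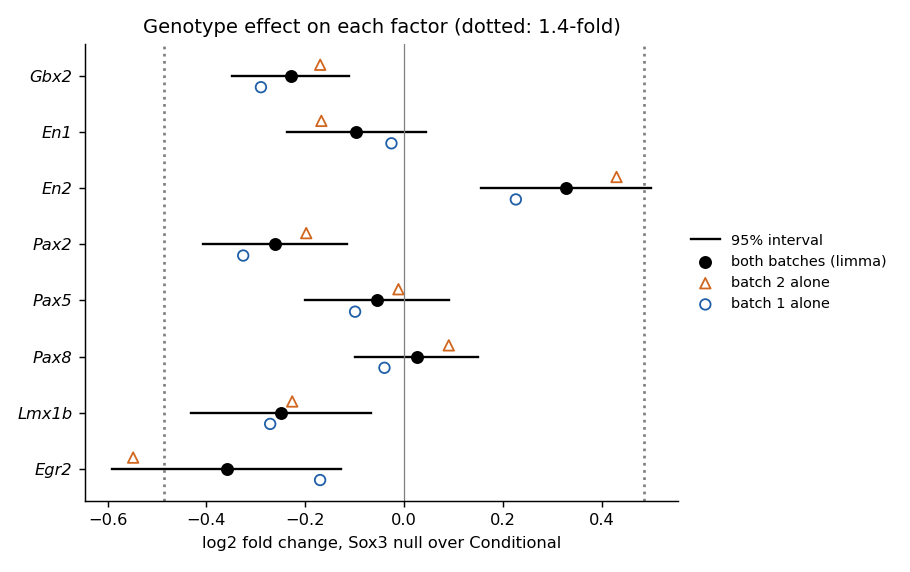
Genotype effect on the 8 measured factors as log2 fold change, *Sox3* null over Conditional (horizontal axis). Filled points are limma's estimates over both batches with their 95% intervals, triangles and open circles the differences within batch 2 and batch 1, and dotted lines mark 1.4-fold. The estimates run from -0.36 for *Egr2* to 0.33 for *En2*.

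The batch difference was larger in size than the genotype effect for 5 of the 8 factors and smaller for *En2*, *Gbx2* and *Lmx1b*. In batch 2 relative to batch 1, 4 of the 8 factors fell (*Egr2*, *En1*, *Pax2* and *Pax5*) and none rose in limma (adjusted p limit 0.05), while 10.9% of all transcript clusters rose. Falls of this kind were seen for 9.35% of all transcript clusters and for 14.1% of those above the median signal, where 3 of the 4 lay. The median log2 difference of the 8 was -0.22, against 0.00 over all named transcript clusters. These sizes depended on the normalization. With the arrays centred again on their medians over named and unnamed transcript clusters, the same 4 factors passed. The differences were then -0.89 for *Egr2*, -0.31 for *En1*, -0.21 for *Pax2* and -0.19 for *Pax5*. They were -0.09 for *Lmx1b*, -0.04 for *Gbx2*, -0.01 for *Pax8* and 0.10 for *En2*. Only *Egr2* also reached a change of 1.4-fold, which 2.49% of all transcript clusters reached in either direction and 1.47% in this one.

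*Egr2* fell 1.96-fold in batch 2, with a log2 difference of -0.97 (standard error 0.10, 95% interval -1.20 to -0.74, adjusted p = 1.96e-04 from limma). Its 4 arrays of batch 2 ran from 10.22 to 11.06 and its 4 arrays of batch 1 from 11.62 to 11.82, so that the batches were apart. The difference was -1.16 in *Sox3* null cells and -0.78 in Conditional cells, and it passed within *Sox3* null cells (adjusted p = 0.00210 from limma, where 8.93% of all transcript clusters passed) and within Conditional cells (adjusted p = 0.00933, 6.32%). Batch took 80.5% of the sum of squares of *Egr2* over the arrays and genotype took 11.1%. *En2* divided the other way, with 0.3% for batch and 70.8% for genotype, and so did *Gbx2*, with 19.5% and 67.5%, and *Lmx1b*, with 20.4% and 43.4%.

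*En1* fell 1.32-fold in batch 2, where its arrays ran from 8.16 to 8.45, against 8.64 to 8.83 in batch 1. The log2 difference was -0.40 (standard error 0.06, limma's adjusted p = 0.00165). It was -0.47 in *Sox3* null cells (adjusted p = 0.0139) and -0.33 in Conditional cells (adjusted p = 0.0649), in the limma fit used for *Egr2* within each genotype. *Pax2* had -0.29 (standard error 0.07, adjusted p = 0.0103) and *Pax5* -0.27 (standard error 0.07, adjusted p = 0.0145). In the fit within each genotype, *Pax2* had an adjusted p of 0.183 in *Sox3* null cells and 0.0571 in Conditional cells. *Pax5* had 0.192 and 0.0911. With the Conditional arrays fitted alone, limma gave *Pax2* 0.0403. A plain linear model over all arrays gave 0.0666 for *Pax2* and 0.0768 for *Pax5*. The batches were apart for *En1*, *Pax5* and *Egr2*, as for 9.34% of all transcript clusters in this direction, and they overlapped for *Pax2*, at 8.24 to 8.56 in batch 2 and 8.43 to 8.90 in batch 1. Without Conditional replicate 1, the adjusted p of *Pax5* was 0.0512.

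The other 4 factors did not pass the test for batch. *Gbx2* had a log2 difference of -0.12 (95% interval -0.24 to -0.00), *Lmx1b* had -0.17 (-0.35 to 0.01) and *Pax8* had -0.10 (-0.22 to 0.03). *En2* had 0.02 (-0.15 to 0.19), with 0.12 in *Sox3* null cells and -0.08 in Conditional cells. *Lmx1b* had -0.25 without null replicate 1, with an adjusted p of 0.0401 from limma.

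**Figure D3:**
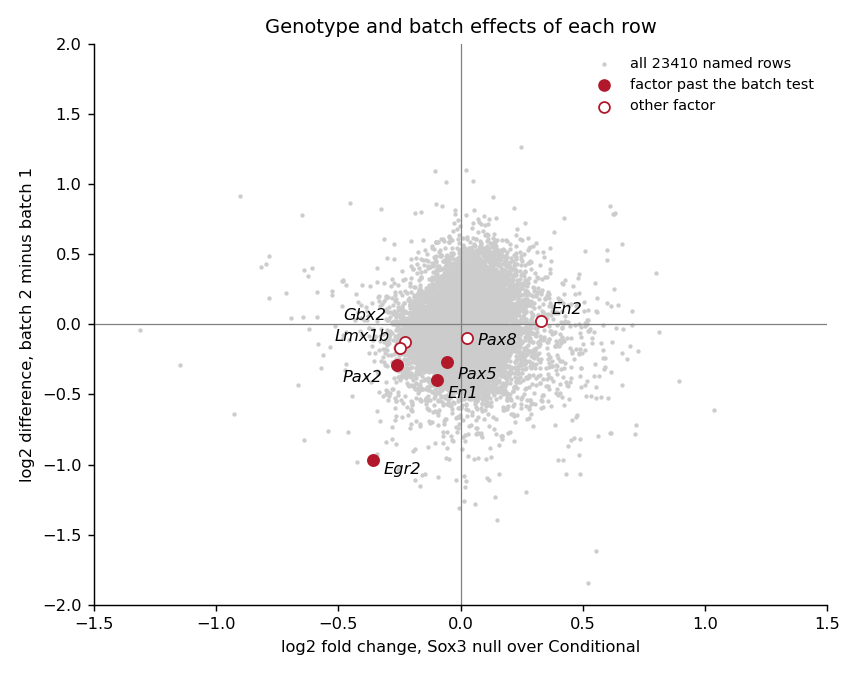
Log2 difference of batch 2 minus batch 1 (vertical axis) against log2 fold change of *Sox3* null over Conditional (horizontal axis), for all 23410 named transcript clusters (grey) and the 8 factors. Filled points passed the test for batch. *Egr2* lies at -0.36 and -0.97, and *En2* at 0.33 and 0.02.

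The sequence before the start of *Egr2* is shown because this gene had the largest change among the factors. The table of RefSeq promoters for GRCm38.p6 holds 14 windows for 8 of the 9 genes (all but *En2*), and the 250 bases upstream of each start were searched on both strands. The 250 bases before one of the 5 *Egr2* starts, at chr10:67537619-67537868 on the plus strand, are given 5′ to 3′ with the POU octamer ATGCAAAT and the CArG box, the site of serum response factor, in capitals.
Egr2: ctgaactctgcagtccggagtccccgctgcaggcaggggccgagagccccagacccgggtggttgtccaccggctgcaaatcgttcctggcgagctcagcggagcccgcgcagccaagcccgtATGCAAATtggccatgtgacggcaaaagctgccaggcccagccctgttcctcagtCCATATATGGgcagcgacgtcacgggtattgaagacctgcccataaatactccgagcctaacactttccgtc

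The octamer starts 127 bases and the CArG box 72 bases before this start, and the 2 do not overlap. A CArG box was found in 4 of the 5 *Egr2* windows and in no window of the other factors, against 1.47% of all 32851 windows. Of these 4 windows 3 overlap and share the same box, so that 2 distinct boxes were found. The octamer was found in 3 of the *Egr2* windows, which overlap one another and share it, and in no window of the other factors, against 1.6% of all windows. The core TGACG of the cyclic AMP response element lay in the same 3 windows and in that of *Lmx1b*, against 17.8% of all windows.

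A SOX core, ACAAAG, was found in 2 of the 14 windows, against 16.5% of all windows. Both belong to *Pax2*, which has 3 windows. The core ACAATG, found in 10.7% of all windows, was in none of the 14. The homeodomain core TAATTA (4.84% of all windows) and the EGR sites GCGGGGGCG (2.57%) and GCGTGGGCG (0.536%) were also in none of the 14. The GC box GGGCGG was found in 8 of the 14 windows, against 32.7% of all windows. These 8 windows belong to 6 of the 8 genes, namely *Egr2*, *Gbx2*, *Lmx1a*, *Pax2*, *Pax5* and *Pax8*. The first of the *Pax2* windows, at chr19:44746351-44746600 on the plus strand, is shown with ACAAAG in capitals.
Pax2: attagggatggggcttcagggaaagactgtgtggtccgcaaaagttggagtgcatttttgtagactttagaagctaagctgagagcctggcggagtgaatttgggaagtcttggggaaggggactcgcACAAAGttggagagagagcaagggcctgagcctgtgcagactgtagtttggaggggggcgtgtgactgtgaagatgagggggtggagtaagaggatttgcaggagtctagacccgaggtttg

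The genes around these factors were read from 5 lists that cover the isthmus, hindbrain segmentation, the midbrain dopaminergic and floor plate genes, the roof plate and rhombic lip, and the paralogs of the factors. Of 60 listed genes 57 were measured. By genotype, 3 rose and 1 fell in *Sox3* null cells, against 1.15% and 0.393% of all transcript clusters. The fall was that of *Otx2*, the forebrain and midbrain factor that opposes *Gbx2* at the isthmus, by 0.47 on the log2 scale (standard error 0.08, limma's adjusted p = 0.0113). The rises were those of *Zic1* (0.36), a zinc finger factor of the dorsal neural tube, and of *Pax3* (0.29) and *Pax7* (0.35), paired box factors of dorsal progenitors that belong to another subfamily than *Pax2*, *Pax5* and *Pax8*.

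The isthmic ligand genes did not pass the test for genotype. *Fgf8* was at -0.19 on the log2 scale (limma's adjusted p = 0.238), *Wnt1* had 0.17 (adjusted p = 0.619) and *Fgf17* had -0.01 (adjusted p = 0.975). None of 14 hindbrain segmentation genes and none of 13 dopaminergic and floor plate genes passed in limma. Of the dopaminergic and floor plate genes 2 lay above the median signal, so that this list was read from dim transcript clusters. As medians of the log2 fold change, the isthmus had 0.04, hindbrain segmentation 0.04 and the dopaminergic and floor plate list -0.00.

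By batch, 25 of the 57 genes were lower in batch 2 and 2 were higher in limma, against 9.35% lower and 10.9% higher over all transcript clusters. The counts for these lists were not taken again after the arrays were centred on their medians. Among the hindbrain segmentation genes 8 of 14 were lower and 1 was higher. *Nab2*, a co-repressor that binds *Egr2* and its paralogs, fell by 0.96 on the log2 scale (standard error 0.06, adjusted p = 1.7e-05), close in size to the fall of *Egr2*, and *Nab1*, its relative, fell by 0.44. *Epha4*, a receptor gene that *Egr2* activates in the hindbrain, fell by 0.47, *Cyp26b1*, whose enzyme degrades retinoic acid, by 0.59 and *Irx3*, an Iroquois homeobox gene, by 0.34. The gene that rose was *Hoxb1* (0.25), a Hox gene of the fourth rhombomere. The genotype effects of *Nab2* (-0.05), *Nab1* (0.02) and *Epha4* (-0.02) did not pass.

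Among the isthmic genes, 7 of 14 were lower in batch 2 and 1 was higher. *Wnt1* fell by 0.79 on the log2 scale (standard error 0.12, adjusted p = 0.00113 from limma), *Irx2*, a factor of the anterior hindbrain, by 0.48, *Fgf18* by 0.43, *Spry1*, a feedback inhibitor of FGF signalling, by 0.41 and *Dmbx1*, a homeobox gene of the midbrain, by 0.36. *Otx2* rose by 0.28 (adjusted p = 0.0223). *Fgf8* had -0.11 (adjusted p = 0.297). The paralogs of *Egr2* were read side by side with it. *Egr1* had -0.55 (adjusted p = 1.80e-04), *Egr3* had -0.24 (adjusted p = 0.0489) and *Egr4*, which did not pass, had 0.12. The paralogs *Pax3* (-0.43) and *Pax7* (-0.39), higher in *Sox3* null cells, were lower in batch 2. For genotype *Egr1* had -0.26 (adjusted p = 0.0545). The roof plate list had 4 of 8 measured genes lower in batch 2, namely *Wnt1*, *Msx2* (-0.65), *Zic1* (-0.35) and *Bmp6* (-0.27). Of the dopaminergic and floor plate genes *Msx1* (-0.59), *Foxa1* (-0.26) and *Foxa2* (-0.27) were lower in batch 2.

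**Figure D4:**
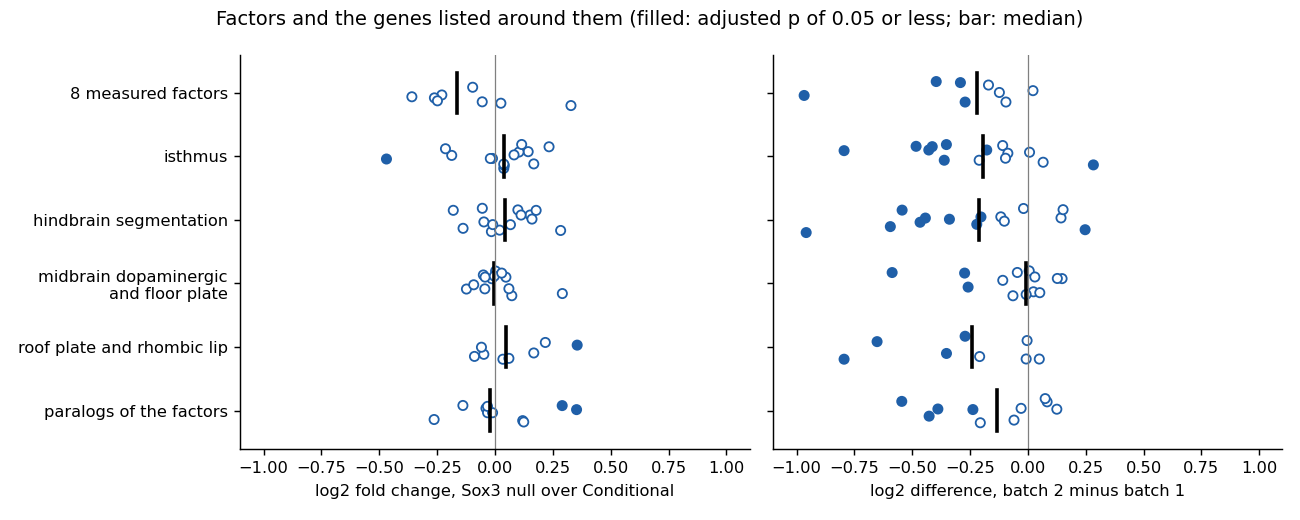
Genotype effect as log2 fold change, *Sox3* null over Conditional (left), and log2 difference of batch 2 minus batch 1 (right) for the 8 factors and for each measured gene of 5 lists. Each circle is a gene, filled where the adjusted p passed 0.05, and bars are medians, which for batch run from -0.24 for the roof plate list to -0.01 for the dopaminergic and floor plate list.

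Transcript clusters with the most similar values over the 8 arrays were sought among the 10940 that carry 1 symbol and lie above the median signal, for the 3 factors that passed the test for batch and are that bright. For *Egr2* they were *Ddah1*, which encodes an enzyme that degrades methylated arginine (Pearson r = 0.99), and *Spry4*, a feedback inhibitor of receptor tyrosine kinase signalling (r = 0.987). For *En1* they were *Rtn3*, a reticulon gene of the endoplasmic reticulum (r = 0.993), and a transcript cluster of *Larp1*, an RNA-binding protein gene (r = 0.989). For *Pax2* they were *Tyro3*, a receptor tyrosine kinase gene (r = 0.97), and *Klf5*, a zinc finger factor of pluripotent and epithelial cells (r = 0.967). An r above 0.9 was reached by 328 transcript clusters for *Egr2*, 417 for *En1* and 98 for *Pax2*. All of these values come from the same 8 arrays, and a shared step between the batches gives a high r by itself. Among the factors, *Egr2* and *En1* had an r of 0.95 and *Gbx2* and *Pax2* 0.94, while *En2* had a negative r with all others but *Pax8*.

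Several factors are also expressed outside the brain, and the marker genes of those tissues were read beside them. Over all transcript clusters, 9.35% fell and 10.9% rose in batch 2 past the test in limma. By genotype, 1.15% rose and 0.393% fell in *Sox3* null cells. For the nephric lineage, which expresses *Pax2* and *Pax8*, 1 of 6 measured markers lay above the median signal. Of these 6, *Gata3* and *Wt1* fell in batch 2 (-0.83 and -0.32 on the log2 scale), and the summed linear signal of the list was 735 to 820 in batch 2 and 947 to 1008 in batch 1. For B cells, which express *Pax5*, none of 4 measured markers passed either test in limma. An unadjusted p under 0.05 was reached by 2 for batch and 3 for genotype, against 31.5% and 13.1% of all transcript clusters. The sum was 616 to 818 in batch 2 and 611 to 786 in batch 1. Most of it came from *Ebf1*, at a mean of 9.05 log2 units, against 6.34 for *Vpreb1*, 6.12 for *Cd79b* and 5.01 for *Cd79a*. For batch *Ebf1* had 0.21, and the others lay below 0. For the neural crest and Schwann lineage, which expresses *Egr2*, the sum was 655 to 842 in batch 2 and 853 to 996 in batch 1. *Erbb3* (-0.46) and *Tfap2b* (-0.78) fell in batch 2 and *Foxd3* (0.43) rose, while *Sox10* had -0.02 and did not pass. By genotype *Tfap2b* rose in *Sox3* null cells (0.71). The pluripotency genes had 5 of 10 lower in batch 2, led by *Tfcp2l1* (-0.59), *Tbx3* (-0.42), *Esrrb* (-0.28) and *Fgf4* (-0.31), with sums of 7982 to 8843 in batch 2 and 7879 to 9917 in batch 1. For the otic placode, which also expresses *Pax2* and *Pax8*, *Foxi3* was lower in batch 2 (-1.11) and *Eya1* higher in *Sox3* null cells (0.42), of 6 measured markers, and the sum was 1593 to 2088 in batch 2 and 2188 to 2763 in batch 1. The labels name gelatine as the substrate and the study's methods name irradiated fibroblast feeders for the ES cells, and the sources used here do not settle which applied. Of 7 fibroblast markers *Col1a2* (-0.50) and *Col1a1* (-0.31) were lower in batch 2 and *Thy1* lower in *Sox3* null cells (-0.51). Of 6 mesoderm and endoderm markers *Gata6* (-0.61), *Eomes* (-0.55) and *Foxa2* were lower in batch 2. Among the neural progenitor markers *Nes* was higher in *Sox3* null cells (0.49), and in batch 2 *Nes* (-0.31) and *Hes5* (-0.27) were lower and *Fabp7* (0.19) was higher. By genotype 0 of these 8 markers lay below 0. Their summed linear signal was 30057 to 31034 in *Sox3* null cells and 26684 to 27255 in Conditional cells. Of the other lists, 6 of 6 mesoderm and endoderm, 4 of 4 B cell and 4 of 6 otic genes lay below 0 by genotype. So did 3 of 4 neural crest, 3 of 6 nephric and 3 of 7 fibroblast genes, against 50.0% of all transcript clusters. A lean below 0 for batch was common to all these marker lists, against 49.1% of all transcript clusters. It held for 9 of 10 pluripotency, 5 of 6 nephric, 7 of 7 fibroblast and 6 of 6 mesoderm and endoderm genes. The otic list had 4 of 6, the B cell and neural crest lists 3 of 4 each and the neural progenitor list 5 of 8. These counts were not taken again after median centring, which moved the batch differences of the measured factors upward, and several of the genes lie near 0. The part of these cell types in the signals of the factors was not tested.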

How the data were processed

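RNA from 8 Day 4 cultures was hybridised to Mouse Gene 1.0 ST arrays (Affymetrix). The deposited values are log2 signals per transcript cluster, normalized by the authors; Partek is named in the submitters' processing notes, the normalization method and build being not given in the sources used here. Of 35556 transcript clusters, 21789 had 1 gene symbol, 1621 several and 12146 none, and the 23410 named ones were tested. Array medians were 7.63 to 7.70, and the number of arrays limits the precision. Genotype and batch were fitted together with limma 3.58.1 (R 4.3.3, lmFit and eBayes), with Benjamini-Hochberg adjustment over all named transcript clusters. A gene passed at an adjusted p of 0.05 or less. The fit was tested on simulated data. Members and lists were chosen with earlier results of these data known. Named were all members, up to 4 genes of each list that passed a test by smallest p, and for each bright member that passed a test the 2 transcript clusters most like it. *Fgf8*, *Fgf17*, *Fgf18*, *Nab1*, *Hoxb1*, *Egr4* and *Sox10*, and *Otx2* for batch, were named besides after their values were seen. All measured B cell markers, of which none passed a test, and all neural progenitor markers were named too. For some genes named through the batch test, the genotype value is given as well. The study calls the cultures biological replicates. Deviations of same-numbered cultures from their genotype means correlated at 0.392 to 0.678, where numbers 1 and 2 lie in batch 1 and 3 and 4 in batch 2. Within batch 1 the differences between cultures correlated at -0.324 and within batch 2 at 0.305, so that a pairing beyond batch was not settled, and the number as a block was an alternative. Alternatives changed the normalization, filter, model and samples.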

Additional observations from a re-analysis of the deposited data

How the results depend on the processing

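With 4 arrays a genotype, counts over all transcript clusters moved with the model. For genotype 362 passed and 101 of these reached 1.4-fold. These were 93 and 62 with unnamed transcript clusters tested too, 37 and 29 without the batch term, 125 and 58 with batch as a random block, 47 and 22 with a plain linear model, 6 and 1 with its interaction, 18 and 18 in batch 1 alone, and 23 and 23 in batch 2 alone. Leaving out each culture gave 182 to 321 and 85 to 126. With the replicate block 353 passed and 103 reached 1.4-fold, and no factor passed in limma (*En2* adjusted p = 0.0717). The factors passing for genotype, 0 without a change of setting and 0 to 0 on leaving out each culture, were 1 lower above the median signal (*Gbx2*), 1 lower with an intensity trend (*Gbx2*), 1 lower after quantile normalization (*Pax2*) and 1 higher after median centring (*En2*). Above the median signal, 5 list genes were higher and 2 lower in *Sox3* null cells. For batch 4736 passed and 584 reached 1.4-fold. With unnamed transcript clusters 982 reached it. A plain model passed 2787, its interaction 1663, *Sox3* null cells alone 1609 and Conditional cells alone 1286, with 2, 1, 2 and 2 of the factors lower. Leaving out each culture gave 3455 to 4791 passing, 500 to 742 at 1.4-fold, and 3 to 5 factors lower. *Egr2* kept its direction and passed for batch under all alternatives run, at -1.16 to -0.78. Signs turned only near 0. *Pax8* by genotype was -0.0396 in batch 1 alone and -4e-04 to 0.0742 on leaving out each culture. *En2* by batch was -0.08 in Conditional cells alone and -0.0707 to 0.0738 on leaving out each culture. The causes were not tested.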
